A study of Mus musculus with 9 samples.

Results

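Described here are 10 genes of the NRF2 antioxidant programme in the anterior segment of the newborn mouse eye: Nfe2l2, Keap1, Nqo1, Srxn1, Gclc, Gclm, Txnrd1, Slc7a11, Gstm1 and Gsta4. They were taken by name, as the transcription factor, its inhibitor and a set of antioxidant targets. Each symbol matched 1 of the 35275 Ensembl gene rows of the read count table, so all 10 members were measured, and all 10 passed the filter on low counts. The tissue, taken at postnatal day 0 without the lens, held the cornea, the iris, the ciliary body and the ocular drainage structures. The wildtype group (Col4a1+/+) had 3 libraries and the mutant group (Col4a1+/G1344D) had 6, and each library pooled 4 eyes from 2 mice. The mutant mice were heterozygous for a germline missense allele of the type IV collagen gene Col4a1. Neither strain nor sex is named in the labels. The question is whether the antioxidant genes differ with the Col4a1 genotype at birth, and p-values measure the spread between pools.

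NRF2, the product of Nfe2l2, is a transcription factor of the cap'n'collar family that pairs with small MAF proteins on antioxidant response elements. KEAP1 holds it in the cytoplasm and hands it to a CUL3 ubiquitin ligase for degradation, and oxidants or electrophiles that modify cysteines of KEAP1 let NRF2 accumulate. NRF2 is thus largely controlled at the protein level, which RNA counts do not measure. Its targets make glutathione, regenerate thiols and conjugate or reduce reactive compounds, and the cornea is a tissue in which these enzymes are well known.

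Library totals ran from 25995340 to 35306935 counts, and a member had between 638 and 9044 counts in a library. The labelled tissue was checked by its markers. The corneal epithelium list summed to between 7679 and 8943 CPM (counts per 1000000, with TMM scaling) over the 9 libraries. Neural retina markers summed to at most 2.81 CPM and skeletal muscle markers to at most 6.82 CPM. The pigment cell list summed to 15441 to 16112 CPM in wildtype and 13713 to 15372 CPM in mutant, with no overlap. Lens markers summed to 210 to 219 CPM in wildtype and 174 to 202 CPM in mutant, again with no overlap. Wildtype 1 and mutants 1, 3, 4, 5 and 6 had over 1% of their counts on Gm42418, a locus that collects ribosomal RNA reads, and the other libraries had under 1%.

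Sequences before the transcription start are shown for the 3 members that were higher in the mutant under every alternative tried, so that the letters NRF2 can bind may be seen beside the values. They are 250 bases on the strand of the gene, from RefSeq on GRCm38.p6: Srxn1 at chr2:152105274-152105523 (plus strand), Gclm at chr3:122245307-122245556 (plus strand) and Gstm1 at chr3:108017974-108018223 (minus strand). Capitals mark matches, on either strand, to the core of the antioxidant response element, TGACNNNGC, or to the related AP-1 type site, TGANTCA, which can overlap it.
Srxn1: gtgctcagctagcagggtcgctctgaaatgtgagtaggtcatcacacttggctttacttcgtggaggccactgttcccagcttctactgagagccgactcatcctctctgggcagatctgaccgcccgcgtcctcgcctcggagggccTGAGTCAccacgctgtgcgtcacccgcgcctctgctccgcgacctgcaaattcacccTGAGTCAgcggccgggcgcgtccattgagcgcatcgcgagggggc
Gclm: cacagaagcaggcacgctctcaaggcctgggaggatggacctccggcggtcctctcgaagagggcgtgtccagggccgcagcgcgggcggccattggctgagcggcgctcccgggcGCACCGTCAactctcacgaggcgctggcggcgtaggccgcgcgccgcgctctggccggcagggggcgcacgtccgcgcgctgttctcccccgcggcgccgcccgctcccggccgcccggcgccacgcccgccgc
Gstm1: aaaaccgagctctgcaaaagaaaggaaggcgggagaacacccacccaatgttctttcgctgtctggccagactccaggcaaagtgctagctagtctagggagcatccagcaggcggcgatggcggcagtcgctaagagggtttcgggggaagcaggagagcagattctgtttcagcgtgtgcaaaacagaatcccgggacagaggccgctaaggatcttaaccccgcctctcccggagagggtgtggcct

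The Srxn1 stretch held TGANTCA at 2 positions, beginning 102 and 45 bases before the start, and the Gclm stretch held TGACNNNGC on the other strand, 134 bases before the start. The shown stretch of Gstm1 held no match to these letters. The promoter table matched 8 of the 10 members with 11 windows of 300 bases, from 250 before to 50 after a start. TGACNNNGC lay in 4 of the 11 windows, 1 each of Nfe2l2, Srxn1, Gclm and Txnrd1, and in 12.4% of all 32851 windows of that length. Txnrd1 had 3 windows and Gstm1 had 2. TGANTCA lay in 1 of the 11 windows, that of Srxn1, and in 7.81% of all windows. A match is a description of letters, not a measured binding site.

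Of the 10 members, 4 were higher in the mutant and 0 lower in edgeR's quasi-likelihood test (adjusted p under 0.05 over 15825 genes; 2 members, Nfe2l2 and Txnrd1, were at an unadjusted p under 0.05 but did not pass, and none of the 3 members with a negative change was), beside 9.7% of all tested genes called higher and 9.47% called lower. These 4 were the glutathione transferase gene Gstm1, the sulfiredoxin gene Srxn1, the glutamate-cysteine ligase modifier gene Gclm and the cystine transporter gene Slc7a11, with folds of 1.57, 1.47, 1.45 and 1.29. For the same 4 members every mutant library lay above every wildtype library, a pattern seen in 10.8% of all tested genes, and for 0 members every mutant library lay below every wildtype library, against 11.2% of all tested genes. The median log2 fold change of the 10 members was 0.22, against -0.0019 over all tested genes. In bulk tissue, a change in the share of a cell type and a change in RNA per cell cannot be told apart.

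**Figure D1:**
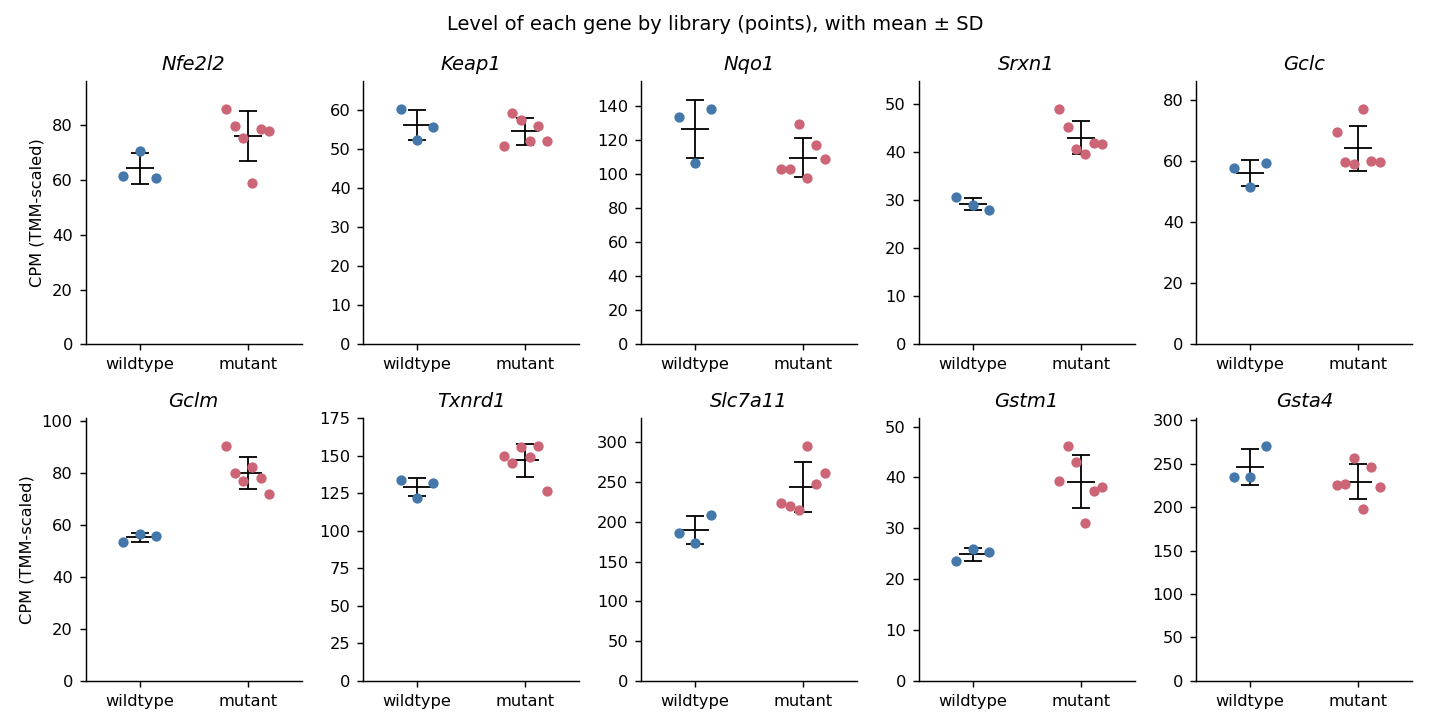
Each panel plots 1 gene, with CPM (TMM-scaled) on the y axis from 0, points for the 3 wildtype and 6 mutant libraries, and a bar for mean ± SD. In Srxn1, Gclm, Slc7a11 and Gstm1 all 6 mutant points lie above all 3 wildtype points, and in the other 6 genes the groups overlap.

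Among the regulators, Nfe2l2 and Keap1 did not pass the test. Nfe2l2 (ENSMUSG00000015839, chromosome 2, 75675513 to 75704641 of GRCm38, minus strand) stood at 61.5, 70.6 and 60.6 CPM in wildtype 1 to 3 and at 59.0 to 85.9 CPM in the mutant, with a median of 78.3. Mutant 4 was the lowest of all 9 libraries, and the other 5 mutant libraries lay above the 3 wildtype libraries. The log2 fold change was 0.24 (SE 0.105, edgeR adjusted p = 0.113), a fold of 1.18 with a 95% interval of 1.01 to 1.38. Without mutant 4 the difference passed (log2 fold change 0.31, edgeR adjusted p = 0.0134).

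Keap1 (ENSMUSG00000003308, chromosome 9, 21229730 to 21239361, minus strand), the inhibitor, stood at 60.2, 52.4 and 55.7 CPM in wildtype and at 50.7 to 59.2 CPM in the mutant, with a median of 54.0. The groups overlapped, with 3 mutant libraries below all wildtype libraries and none above. Its log2 fold change was -0.04 (SE 0.0855, edgeR adjusted p = 0.783), a fold of 0.973 with an interval of 0.858 to 1.10, and its sign turned without wildtype 1 (0.01). An antisense gene overlaps 510 exonic bases of Keap1 but had 0 counts in every library. The log2 ratio of Nfe2l2 to Keap1 counts within a library, which does not depend on scaling, was 0.19 ± 0.209 (SD, n = 3) in wildtype and 0.47 ± 0.193 (SD, n = 6) in mutant, with overlapping ranges.

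Glutathione synthesis genes differed in how far they moved. Gclm (ENSMUSG00000028124, chromosome 3, 122245557 to 122270732, plus strand) encodes the modifier subunit of glutamate-cysteine ligase, the rate-limiting enzyme of glutathione synthesis. It stood at 53.3, 56.6 and 55.7 CPM in wildtype and at 72.1 to 90.4 CPM in the mutant, with a median of 79.0. The lowest mutant library lay well above the highest wildtype library. Gclm rose, with means of 55.2 ± 1.73 CPM in wildtype (SD, n = 3) and 79.9 ± 6.15 CPM in mutant (SD, n = 6) and a log2 fold change of 0.53 (SE 0.0852, edgeR adjusted p = 0.00152). Its exons share 296 bases with the antisense gene Gm17494 and 244 bases with the pseudogene Gm6061, and these were counted at no more than 0.774 CPM and at 0 in any library.

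Gclc (ENSMUSG00000032350, chromosome 9, 77754535 to 77794485, plus strand) encodes the catalytic subunit. Its wildtype levels were 57.5, 51.3 and 59.2 CPM, and its mutant levels ran from 58.8 to 76.9 CPM with a median of 59.9. Mutant 4, at 76.9 CPM, and mutant 1, at 69.5 CPM, stood above the other 4 mutant libraries, which lay close to wildtype 3. The log2 fold change of 0.19 (SE 0.101) did not pass (edgeR adjusted p = 0.188), and the 95% interval of the fold ran from 0.987 to 1.33. Within a library, the log2 ratio of Gclc to Gclm counts was 0.02 ± 0.141 (SD, n = 3) in wildtype and -0.32 ± 0.122 (SD, n = 6) in mutant. The catalytic subunit's counts were thus lower relative to the modifier's, and 5 of 6 mutant libraries lay below the lowest wildtype ratio of -0.14, while mutant 4 stood at -0.10.

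Slc7a11 (ENSMUSG00000027737, chromosome 3, 49892526 to 50443614, minus strand) encodes xCT, the cystine-glutamate exchanger that brings in cystine for glutathione. Its levels were 186, 174 and 209 CPM in wildtype and 215 to 295 CPM in the mutant, with a median of 236. The groups did not overlap, but wildtype 3 and mutant 3 were close. Slc7a11 rose from 189 ± 17.8 to 244 ± 31.0 CPM (log2 fold change 0.36, SE 0.102, edgeR adjusted p = 0.0214). This call was lost without wildtype 1 (edgeR adjusted p = 0.110) or wildtype 2 (0.0778), and leaving out each library in turn gave adjusted p-values from 0.0167 to 0.110. It was also lost once a trend of expression on exon length was removed from each library, where its log2 fold change went from 0.36 to 0.11 (edgeR adjusted p = 0.406).

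Thiol repair was represented by Srxn1 and Txnrd1. Srxn1 (ENSMUSG00000032802, chromosome 2, 152105516 to 152111376, plus strand) encodes sulfiredoxin, which restores overoxidised peroxiredoxins. It stood at 30.5, 28.9 and 27.9 CPM in wildtype and at 39.6 to 48.8 CPM in the mutant, with a median of 41.7. All 6 mutant libraries lay above the wildtype range. Srxn1 rose from 29.1 ± 1.31 to 42.9 ± 3.45 CPM (log2 fold change 0.56, SE 0.0940, edgeR adjusted p = 0.00201).

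Txnrd1 (ENSMUSG00000020250, chromosome 10, 82833951 to 82897712, plus strand) encodes the cytosolic thioredoxin reductase. It stood at 134, 122 and 132 CPM in wildtype and at 126 to 157 CPM in the mutant, with a median of 149. Mutant 6, at 126 CPM, fell inside the wildtype range and the other 5 mutant libraries lay above it. The log2 fold change of 0.19 (SE 0.0792) did not pass (edgeR adjusted p = 0.106; interval of the fold 1.01 to 1.28), and without mutant 6 it was 0.23 with an adjusted p of 0.0489 (edgeR).

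The detoxification enzymes split. Gstm1 (ENSMUSG00000058135, chromosome 3, 108012255 to 108017973, minus strand), a mu-class glutathione transferase gene, stood at 23.5, 25.98 and 25.3 CPM in wildtype and at 31.0 to 46.2 CPM in the mutant, with a median of 38.7. Mutant 4 was the lowest mutant library and still above all wildtype libraries. Gstm1 rose from 24.9 ± 1.27 to 39.2 ± 5.22 CPM (log2 fold change 0.65, SE 0.116, edgeR adjusted p = 0.00246). Gstm1 belongs to a cluster of similar genes, so reads shared with its neighbours are uncertain. Of the other tested mu-class genes, Gstm2, Gstm4 and Gstm6 did not pass (log2 fold changes -0.15, -0.39 and 0.16, edgeR adjusted p = 0.447, 0.0598 and 0.665), and Gstm5 fell from 59.3 ± 6.36 to 42.1 ± 4.94 CPM and Gstm7 from 7.25 ± 0.693 to 4.68 ± 0.507 CPM (log2 fold changes -0.49 and -0.63, edgeR adjusted p = 0.00549 and 0.0129). Neither Gstm5 nor Gstm7 was called without wildtype 1 or with exon length removed.

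Gsta4 (ENSMUSG00000032348, chromosome 9, 78182774 to 78209349, plus strand) encodes an alpha-class transferase known for conjugating the lipid peroxidation product hydroxynonenal. Its levels were 235, 234 and 271 CPM in wildtype and 199 to 257 CPM in the mutant, with a median of 227. The groups overlapped, and 4 mutant libraries lay below all wildtype libraries. The log2 fold change of -0.10 (SE 0.0858, edgeR adjusted p = 0.429; interval of the fold 0.821 to 1.06) did not pass, and with exon length removed it was 0.12.

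Nqo1 (ENSMUSG00000003849, chromosome 8, 107388225 to 107403206, minus strand), a quinone reductase gene and a classical NRF2 target, stood at 134, 107 and 138 CPM in wildtype. The mutant libraries ran from 97.4 to 129 CPM with a median of 106, and 3 of them lay below all wildtype libraries. The log2 fold change was -0.20 (SE 0.0998, edgeR adjusted p = 0.167), a fold of 0.870 with an interval of 0.751 to 1.01. It was -0.30 without wildtype 2, where it passed (edgeR adjusted p = 0.0499), and -0.0049 with exon length removed.

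**Figure D2:**
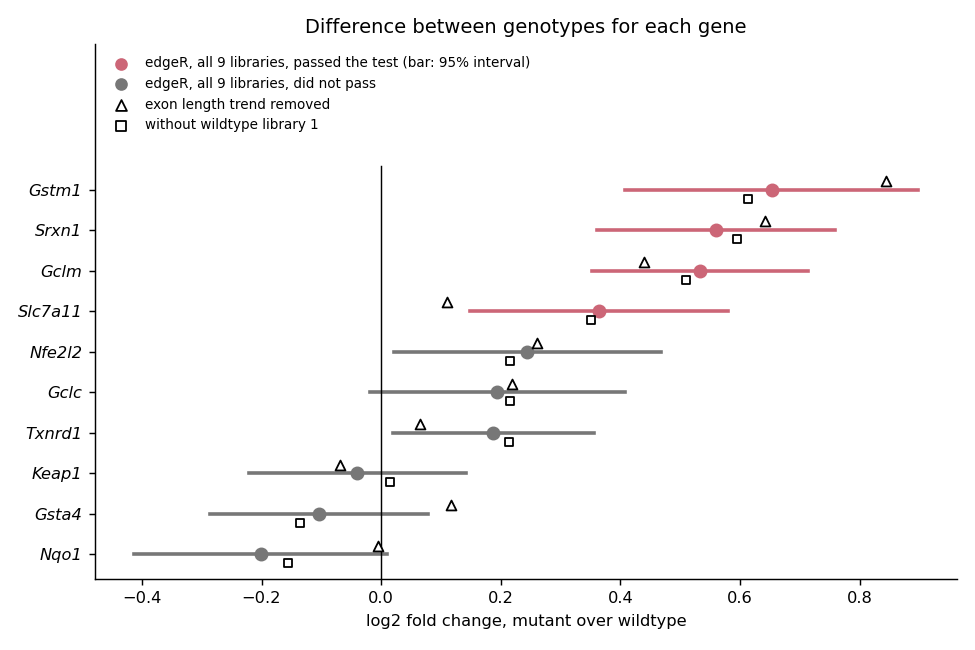
Log2 fold change of mutant over wildtype for each member on the x axis, as a filled point with its 95% interval, with open triangles for the fit with the exon length trend removed and open squares for the fit without wildtype 1. Gstm1, Srxn1 and Gclm stay at 0.44 or above in all 3 fits, while Slc7a11 goes to 0.11 and Gsta4 crosses 0 with exon length removed.

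Gstm1, Srxn1 and Gclm passed the test in all 21 alternative fits, with log2 fold changes of 0.60 to 0.84, 0.52 to 0.64 and 0.44 to 0.58. Without wildtype 1, where 1.88% of 16159 tested genes were called higher and 1.45% lower, 3 members were higher and 0 lower (edgeR). With exon length removed, where 5.75% of genes were called higher and 7.8% lower, the counts were again 3 and 0. With the Gm42418 share or the split at 1% as a covariate, Gstm1, Srxn1 and Gclm passed and Slc7a11 did not (edgeR adjusted p = 0.116 and 0.0973). Differences in mean log2 CPM on each side of that split rest on 1 library of a group and carry no test. Among the libraries over 1% (1 wildtype, 5 mutant) they were 0.67 for Gstm1, 0.47 for Srxn1, 0.58 for Gclm and 0.41 for Slc7a11. Among those under 1% (2 wildtype, 1 mutant) they were 0.85, 0.67, 0.51 and 0.21. Mutant 4 had the lowest level of the 9 libraries for Nfe2l2, Nqo1 and Gsta4 and the highest for Gclc and Slc7a11.

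Per kilobase of annotated exon, Gsta4 and Nqo1 were the most abundant members in wildtype tissue, at 195 ± 16.3 and 81.2 ± 10.96 CPM per kilobase (SD, n = 3). Txnrd1 (18.2 ± 0.865), Gstm1 (16.9 ± 0.862) and Nfe2l2 (16.9 ± 1.46) followed, and among these 3 each overlapped the next in range. Below them, Gclc (14.9 ± 1.11), Slc7a11 (13.6 ± 1.28) and Keap1 (12.0 ± 0.830) formed a further run in which each overlapped the next, and Srxn1 (10.3 ± 0.464) and Gclm (8.77 ± 0.275) were lowest, each apart from its neighbours. In the mutant the order differed: Gstm1 stood 1 place higher at 26.6 ± 3.54 CPM per kilobase (SD, n = 6), Srxn1 at 15.2 ± 1.22 and Gclm at 12.7 ± 0.978 both stood above Keap1, and Keap1 came last at 11.6 ± 0.738. These levels use all annotated exons of a gene, so a gene with long rarely used exons is understated.

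**Figure D3:**
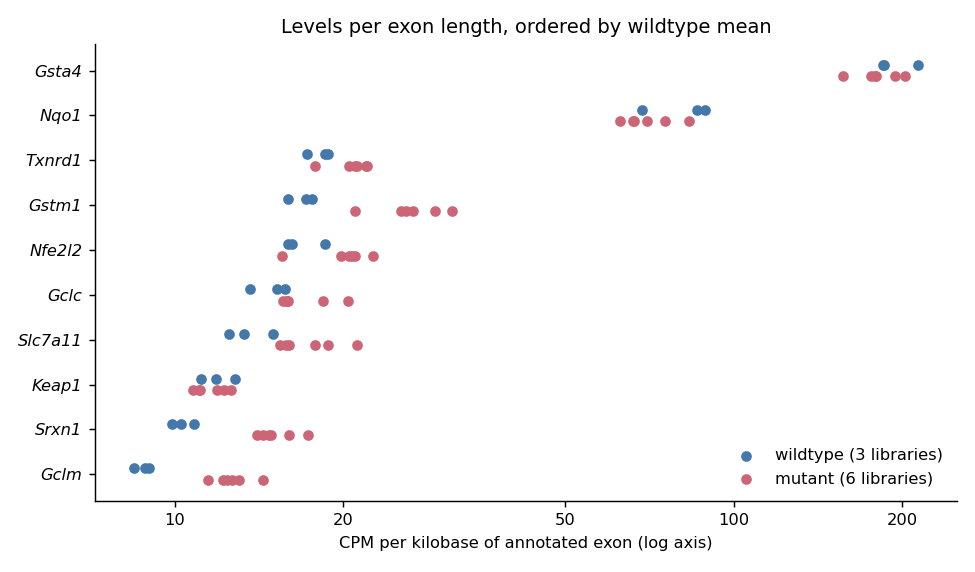
CPM per kilobase of annotated exon on a log x axis for the 10 members, ordered by wildtype mean, with 1 point per library. Gsta4 and Nqo1 lie far to the right in both groups. Gstm1, Srxn1, Gclm and, by a narrow gap, Slc7a11 show all mutant points to the right of all wildtype points.

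By root mean square distance over the 9 libraries, with log2 CPM centred on the wildtype mean, the tested genes nearest to Gstm1, the member with the largest change, were Sod3 (0.112), Tnfrsf1b (0.124) and Kcnj15 (0.127), where the median gene stood at 0.616. Sod3 encodes the extracellular superoxide dismutase, and went from 22.6 ± 3.66 to 34.8 ± 5.41 CPM. These distances describe likeness in 9 libraries that share genotype, depth and scaling, and carry no test.

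The lists of other pathway genes moved in both directions. Their counts stand beside 9.7% of all tested genes called higher and 9.47% lower. Without wildtype 1 these shares were 1.88% and 1.45%, so calls fell over all genes and not only in these lists. Of 16 regulators and partners of NRF2, 4 were called higher and 1 lower, with a median log2 fold change of 0.18. Bach1, a repressor that competes with NRF2 for its sites and is released by haem, rose from 84.0 ± 2.65 to 103 ± 5.96 CPM (edgeR adjusted p = 0.0146). Bach2 rose from 8.26 ± 1.63 to 13.9 ± 2.44 CPM and the kinase gene Gsk3b from 113 ± 12.8 to 155 ± 20.9 CPM, and Mafg, a small MAF partner, from 26.7 ± 1.13 to 33.6 ± 2.48 CPM, while Rbx1, a subunit of the CUL3 ligase, fell from 110 ± 13.0 to 84.9 ± 6.67 CPM. Without wildtype 1, beside 1.88% and 1.45% of all genes, 0 of the 16 were called in either direction. Without wildtype 3 the counts were 2 higher and 1 lower (edgeR).

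In 3 lists of other antioxidant enzymes, most genes that passed were lower. Of 20 tested glutathione transferase genes other than the members, 9 were lower and 1 higher (median log2 fold change -0.41), and of 14 thioredoxin and peroxiredoxin genes 6 were lower and 0 higher (median -0.26). Of 17 further glutathione genes, 4 were lower and 2 higher (median -0.27). Among them Gpx4, the peroxidase that reduces lipid peroxides, fell from 418 ± 36.1 to 271 ± 28.6 CPM (edgeR adjusted p = 0.000907), and Gpx8 from 131 ± 10.2 to 89.1 ± 10.8 CPM. Txn2, the mitochondrial thioredoxin gene, fell from 146 ± 13.8 to 102 ± 11.4 CPM and Prdx4 from 167 ± 20.2 to 118 ± 12.1 CPM. Mgst1, a microsomal transferase gene, fell from 282 ± 32.4 to 214 ± 18.4 CPM, and Gsta2 from 37.4 ± 1.43 to 26.5 ± 3.15 CPM. Gpx7 and Chac2 also fell, and the glutathione genes that rose were the reductase gene Gsr, from 35.4 ± 1.52 to 43.3 ± 3.95 CPM, and Gpx3, from 22.9 ± 5.34 to 35.6 ± 9.11 CPM. The transferase gene that rose, Mgst2, was scarce, at 0.257 ± 0.205 and 0.969 ± 0.665 CPM. The calls of Gsr, Gpx3 and Mgst2 were lost in 12 of 21, 9 of 21 and 13 of 20 alternatives, and among them without wildtype 1 or wildtype 3. Of the genes that fell, Chac2, Gpx7, Gsta2 and Mgst1 lost their calls in 6, 3, 2 and 1 of 21 alternatives, each of them without wildtype 1. Gpx4, Gpx8, Txn2 and Prdx4 kept theirs in all 21. With exon length removed, where 7.8% of all genes were called lower, the transferase, thioredoxin and glutathione lists held 5, 6 and 4 genes called lower. Their median log2 fold changes in that fit were -0.23, -0.20 and -0.26. Without wildtype 1, where 1.45% of all genes were called lower, the 3 lists held 1, 2 and 2 genes called lower.

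Of 8 enzymes that supply NADPH, which the reductases consume, 4 were lower and 1 higher. Tkt, a pentose phosphate enzyme that is also abundant in the corneal stroma, fell from 1108 ± 73.3 to 834 ± 47.7 CPM, and G6pdx, the entry enzyme of that pathway, rose from 65.3 ± 7.48 to 80.0 ± 4.16 CPM (edgeR adjusted p = 0.00471 and 0.0270). Pgls, Taldo1 and Idh1 also fell, and the calls of Taldo1 and Idh1 were lost in 16 and 11 of 21 alternatives. Without wildtype 1, where 1.88% of all genes were called higher and 1.45% lower, the list held 1 gene called lower (Tkt) and 0 higher. With exon length removed, where 7.8% of all genes were called lower and 5.75% higher, it held 2 lower and 1 higher (edgeR). G6pdx was no longer called when wildtype 1, wildtype 2 or mutant 3 was left out. Of 17 other detoxification and export genes linked to NRF2, 2 were higher, Abcc3 and Abcc4, and 2 lower, Aldh3a1 and Cbr1. That is 11.8% each way, near the 9.7% higher and 9.47% lower of all tested genes. The export pump gene Abcc3 rose from 2.41 ± 1.596 to 7.21 ± 1.21 CPM (log2 fold change 1.58, edgeR adjusted p = 0.00428), and the value ran from 1.22 to 2.23 as each library was left out. Of this list 0 genes were called lower without wildtype 1, without wildtype 2, with exon length removed or with either Gm42418 covariate (edgeR), and 1 (Abcc3) was called higher without wildtype 1. The list held 3 genes called higher without wildtype 2, beside 1530 of 16141 genes, and 4 with exon length removed, beside 5.75%. With the Gm42418 share or split it held 2, beside 794 and 938 of 15825 genes. Limma-voom called 5 of the list higher and 2 lower, beside 2359 and 2335 of all genes.

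In haem and iron handling, 3 of 7 tested genes were higher and 0 lower, and none of the listed pathway genes rose as far as Hmox1. Hmox1, the haem oxygenase gene and a target of both NRF2 and BACH1, went from 48.2 ± 1.64 to 382 ± 73.4 CPM, a log2 fold change of 2.98 against 0.65 or less in the 10 members. The iron exporter gene Slc40a1 rose from 51.6 ± 0.824 to 127 ± 6.64 CPM and the ferritin gene Fth1 from 715 ± 22.9 to 984 ± 130 CPM (edgeR adjusted p = 3.49e-08 and 0.00962), and Fth1 was not called without wildtype 1 (0.0530). Slc7a11 is also a target of ATF4. Of 13 genes of the ATF4 amino acid response, 2 were higher (Slc7a5 and Sesn2) and 2 lower (Psat1 and Phgdh), with a median log2 fold change of -0.03. That is 15.4% each way, beside 9.7% of all tested genes called higher and 9.47% lower. Without wildtype 1, where 1.88% of all genes were called higher and 1.45% lower, the ATF4 counts were 0 and 0. Without wildtype 3 they were 0 higher and 2 lower (edgeR). Slc3a2, the partner chain of xCT, stood at 999 ± 62.0 CPM in wildtype and 941 ± 71.7 CPM in mutant and did not pass (edgeR adjusted p = 0.539; named after its value was seen).

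**Figure D4:**
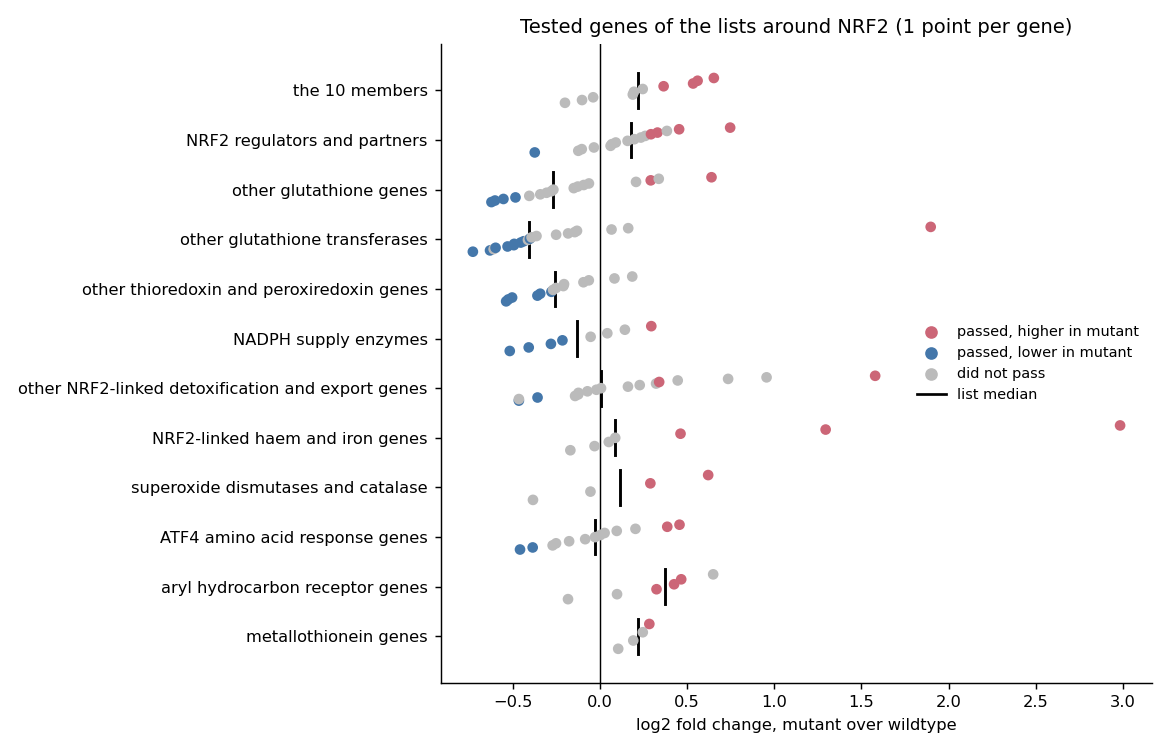
Log2 fold change of mutant over wildtype on the x axis for every tested gene of the 10 members and of 11 lists around NRF2, 1 point per gene, coloured by the edgeR test, with a black bar at the list median. The medians run from -0.41 in the other glutathione transferases to 0.37 in the aryl hydrocarbon receptor genes, and Hmox1 stands apart at 2.98.

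Markers of other cells moved with genotype as well, beside 9.7% of all tested genes called higher and 9.47% lower. Of 11 macrophage markers, 3 were higher (Adgre1, Cd68 and Lyz2) and 0 lower, all 11 had a positive log2 fold change (median 0.36), none was at 0, and their summed level was 264 to 267 CPM in wildtype and 350 to 514 CPM in mutant libraries. Of 8 tested red cell markers, 4 were higher (Hba-a1, Hba-a2, Hbb-bs and Slc4a1) and 1 lower (Klf1), none was at 0 in all libraries, and the sum was 536 to 941 CPM in wildtype and 1798 to 8787 CPM in mutant. Of 6 vascular endothelial markers, 5 were higher and 1 (Erg) lower, with sums of 422 to 546 and 515 to 606 CPM, and of 7 keratocyte markers 0 were higher and 4 lower (Kera, Lum, Dcn and Aldh3a1; edgeR), with overlapping sums of 20729 to 25877 and 15567 to 25916 CPM. Under the alternatives the macrophage list held 3 to 8 genes called higher, with 6 without mutant 4 and 8 with limma-voom or with exon length removed. Without wildtype 1, where 1.88% of all genes were called higher and 1.45% lower, it held 3. In that fit the red cell and endothelial lists each held 1 called higher and the keratocyte list 0 called lower (edgeR). Without wildtype 2 the red cell list held 2 higher and the keratocyte list 2 lower, and without wildtype 3 the red cell and endothelial lists held 2 and 3 higher. Of 6 markers of corneal endothelium and trabecular meshwork, 1 was higher and 0 lower. Their sums did not overlap, at 462 to 585 CPM in wildtype and 612 to 762 CPM in mutant. Of 6 pigment cell and 6 tested lens markers 0 were called, but both sums were lower in every mutant library than in any wildtype library. A sum is weighted to its most abundant genes. Of the 6 pigment cell markers, 2 had a positive and 4 a negative log2 fold change (median -0.12). For 2 of them every mutant library lay above every wildtype library and for 0 below, beside 10.8% and 11.2% of all tested genes. Of the 6 tested lens markers, 2 changes were positive and 4 negative, with 0 markers apart above and 1 below. Of 10 corneal epithelium markers 1 was higher and 0 lower, with overlapping sums. The part of these cell types in the rises of Gstm1, Srxn1, Gclm and Slc7a11 was not tested.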

How the data were processed

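RNA was measured by bulk sequencing in 3 wildtype and 6 mutant samples, each a pool of 4 eyes from 2 mice. The authors deposited raw counts of reads per Ensembl gene, not normalized, and 0 columns were left without a sample. Per the submitters' processing notes, the tools were DESeq2 1.6.3, HTSeq 0.6.1 and STAR 2.6.1 and the build GRCm38 (mm10); their roles, the annotation release and the strand setting were not given in the sources used here. Overlapping genes may therefore share reads. GENCODE M21 (GRCm38) gave symbols for 34490 of 35275 identifiers, positions and exon lengths.

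Counts were tested with edgeR 4.0.16 (R 4.3.3): TMM scaling, filterByExpr by genotype, a quasi-likelihood model (robust) of genotype alone, and p-values adjusted by Benjamini-Hochberg over 15825 genes with a threshold of 0.05. CPM used TMM library sizes, and log2 CPM a prior count of 2. Intervals are 95% from the fit. Alternatives used other scaling, DESeq2 1.42.0, limma-voom with quality weights (limma 3.58.1), other filters, a replicate block, exon length (mgcv 1.9.3), the Gm42418 share and leaving out each library. A further pair, the Gm42418 split at 1% and the removal of Gm42418 and Lars2, was chosen after seeing the data. Any 2 libraries of a group differed beyond counting noise (chi-square per degree of freedom of 15.6 or more), unlike 1 library sequenced again. This check cannot tell 2 pools from 2 libraries of 1 pool. Each library was treated as 1 replicate.

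All 10 members are named, with up to 4 genes of lowest p per pathway list and the 3 profiles nearest to the member of largest change. Named outside this rule, after their values were seen, were Gstm2, Gstm4, Gstm6, Gstm7, Slc3a2, Mafg, Gsr, Gpx3, Mgst2, Taldo1 and the called cell markers. The members and lists were chosen with earlier results of these data known, so no list was given a test or a p of its own.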

Additional observations from a re-analysis of the deposited data

Results flagged for a closer look

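The level of Txnrd1 in mutant 6, 126 CPM, stood apart from the other 5 mutant libraries, which lay between 145 and 157 CPM. The gap to the nearest library took a larger share of the range of the 6 mutant libraries than the critical value of Dixon's test at 95% allows. It was the 1 case among 13 sets of values checked in this way, and chance gives about 1 in 20.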

How the results depend on the processing

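The count of members called higher was 4 with all libraries and 3 to 5 under the alternatives, and Gstm1, Srxn1 and Gclm were called in each of them. Members called lower went from 0 to 1 when wildtype 2 was left out (Nqo1, edgeR), so over single libraries left out the range was 0 to 1, and limma-voom and DESeq2 called 0 lower. Slc7a11 lost its call in 7 of 21 alternatives and Nfe2l2, uncalled with all libraries, passed in 3. Keap1 and Gsta4 changed sign in 1 alternative each and Nqo1 in 0. Of 1490 values for 71 other named genes, 218 lost their call, 7 gained one, and 3 uncalled ones changed sign. Calls over all genes, 1535 higher and 1499 lower, were 2359 and 2335 with limma-voom, 910 higher with exon length removed, 794 and 832 with the Gm42418 share and 938 and 939 with the Gm42418 split as a covariate. They ran from 303 to 1688 higher and 235 to 1577 lower over single libraries left out, with the lowest values without wildtype 1 and 849 and 820 without wildtype 3. The replicate block was run on libraries 1 to 3 of each group: 787 genes were called higher and 660 lower with the block, and 857 and 733 in the same libraries with no replicate block. Of the members, 3 were called with it and 4 without it. Same-numbered libraries deviated with correlations of 0.0947, 0.0258 and -0.104, and differently numbered ones with -0.16 to 0.19. With 3 same-numbered pairs, this cannot decide whether the numbers pair the samples. The cause of these changes was not tested. Members had at least 638 counts in each library.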

Other observations

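The aryl hydrocarbon receptor also drives Nqo1, and its genes were described for that reason. Of 6 tested genes, 3 were higher and 0 lower (edgeR), beside 9.7% and 9.47% of all tested genes. The median log2 fold change of the 6 was 0.37. The receptor gene Ahr stood at 61.7 ± 7.65 CPM in wildtype (SD, n = 3) and 82.8 ± 11.7 CPM in mutant (SD, n = 6), its partner Arnt at 61.7 ± 5.72 and 77.2 ± 3.18 CPM, and its target Cyp1b1 at 175 ± 6.92 and 242 ± 37.3 CPM (edgeR adjusted p = 0.0207, 0.0136 and 0.0112). Cyp1a1, the classical target, did not pass (log2 fold change 0.65, edgeR adjusted p = 0.327). Without wildtype 1 the count was 0 in both directions (edgeR), beside 1.88% of all genes called higher and 1.45% lower.

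Of the superoxide dismutases and catalase, Sod3 and Cat were higher and Sod1 and Sod2 did not pass. Cat went from 83.8 ± 6.23 to 102 ± 5.44 CPM (edgeR adjusted p = 0.0190), while Sod1 stood at 225 ± 42.6 and 172 ± 33.9 CPM. Sod3 and Cat were not called without wildtype 1. Of 4 metallothionein-linked genes, the zinc exporter gene Slc30a1 was higher (edgeR adjusted p = 0.0487) and lost its call in 14 of 21 alternatives. Mt1 stood at 94.5 ± 5.73 and 102 ± 13.4 CPM and Mt2 at 61.2 ± 6.58 and 69.8 ± 25.5 CPM, and neither passed.

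Within a library, the log2 ratio of Gclm to Nqo1 counts, chosen after the values were seen, was -1.18 ± 0.235 (SD, n = 3) in wildtype and -0.45 ± 0.221 (SD, n = 6) in mutant. The wildtype ratios ran from -1.33 to -0.91 and the mutant ratios from -0.75 to -0.19, with no overlap between the groups. The CPM of Gclm alone already did not overlap, so with this choice of pair the ratio is a description and carries no test.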
